A study of Arabidopsis thaliana with 60 samples.

Results

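Stems of Arabidopsis thaliana plants that overexpress GPT2 from the 35S promoter, called 35S GPT2, were compared with stems of the wild type Col-0 (set 2), which the labels give as the control trial for that line. The comparison was chosen by its labels and holds 6 of the 15 samples of the study, 3 of 35S GPT2 and 3 of Col-0 set 2. The other groups were the mutant line gpt2-1, an HCT-RNAi line and a second Col-0 set (set 1), and of these gpt2-1 and Col-0 set 1 are used here for 1 comparison of effects. All plants were grown for 9 to 10 weeks in 0.5x Noren medium before stems were harvested. The promoter of the construct comes from cauliflower mosaic virus and is active in most plant cell types. The labels do not say whether the 3 samples of 35S GPT2 come from 1 transgenic line, nor how many plants each sample pools. The study relates GPT2 expression to lignin biosynthesis.

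GPT2 encodes a translocator of the plastid envelope that exchanges glucose 6-phosphate for inorganic phosphate, and in leaves it is known for its induction by sugars and by strong light. Stems are rich in xylem vessels and fibres, whose secondary walls are built from cellulose, xylan and lignin. Lignin is made from phenylalanine, which comes from the shikimate pathway in plastids, and its monomers, the monolignols, are joined in the wall by laccases and peroxidases. Secondary wall genes are switched on by a cascade of NAC and MYB transcription factors.

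Reads per gene totalled 11481919, 3827816 and 12536593 in 35S GPT2 samples 1 to 3, and 5258309, 14603171 and 31713084 in Col-0 set 2 samples 1 to 3. The column of gene labels was out of step with the counts in 5 of the 6 tables, whose counts were read in the gene order of the 35S GPT2 sample 1 table. Against sample 1 of Col-0 set 1, their Spearman correlation across genes reached 0.884 to 0.925 in that order and 0.097 to 0.108 under the deposited labels. Levels below are library-scaled CPM, that is, read counts relative to the TMM-scaled library size. A gene was called when edgeR's adjusted p was under 0.05 in a fit with the sample number as a block, and "rose", "fell", "higher" and "lower" are used of called genes. Col-0 set 2 sample 1 stood apart from the other libraries: it lay at 115.3 on the first principal component, which took 66.7% of the variance, against -39.8 to -9.2 for the other 5. Its Spearman correlation with the other 2 Col-0 set 2 samples was 0.935 and 0.940, against 0.984 between those 2, and 20154 genes were at 0 in it, against 16009 and 15903 in the others. Leaving out both samples with number 1 gave 2567 called genes, from 4 samples with 1 residual degree of freedom, and leaving out this library alone, without the block, gave 618.

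Of 16822 genes tested, 1111 were called, or 6.60%. There were 604 genes higher in 35S GPT2 stems, or 3.59%, and 507 lower, or 3.01%. These shares are the background for the list counts of 35S GPT2 against Col-0 set 2 below. The change was at least 2-fold for 393 of them, 205 higher and 188 lower. Levels of the 3 samples of each group did not overlap for 991 of the called genes and for 3634 of all 16822 tested. Lack of overlap was thus common among genes that were not called. The median log2 fold change of all tested genes was 0.01. Without the block 443 genes were called, all of them among the 1111.

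**Figure D1:**
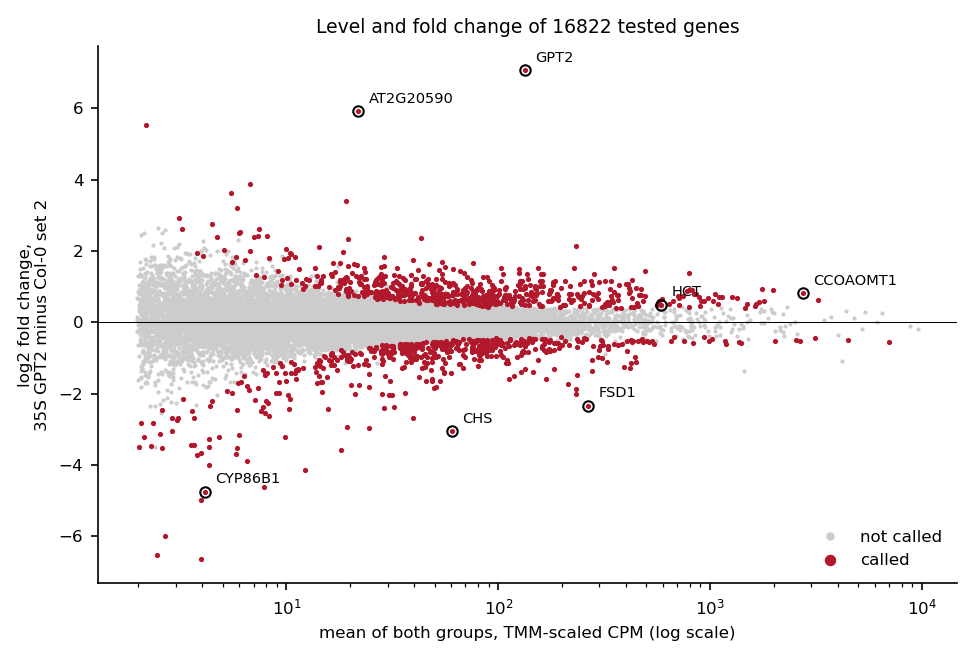
Each point is 1 of the 16822 tested genes, with the mean TMM-scaled CPM of both groups on the horizontal log axis and the log2 fold change of 35S GPT2 over Col-0 set 2 on the vertical axis. The 1111 called genes are red, 7 genes are named, and GPT2 with 7.08 and AT2G20590 with 5.93 lie above all other called genes.

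GPT2 itself (AT1G61800, chromosome 1, 22824414 to 22826902, plus strand, TAIR10.1) was higher in 35S GPT2 stems. It stood at 294, 272 and 226 CPM in 35S GPT2 stems, against 6.86, 1.02 and 1.08 CPM in Col-0 set 2. The groups were far apart, and Col-0 set 2 sample 1 was above its group mates. The log2 fold change was 7.08 (SE 0.38, edgeR adjusted p = 3.61e-05), and 7.96 without that library and without the block. The raw counts behind these values were 3279, 1108 and 2672 in 35S GPT2, against 34, 16 and 34 in Col-0 set 2. Under the deposited labels, GPT2 has 34, 29 and 25 reads in Col-0 set 2, equal to its reads in Col-0 set 1. In Col-0 set 2 sample 1 the re-read value is 34 too. Transgene and endogenous transcripts are not separated in these counts. None of the 5 genes whose locus numbers adjoin GPT2 was called. Their log2 fold changes lay between -0.45 for BGLU45 and 0.63 for AT1G61770.

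No other plastid translocator was called among the 10 tested of 11. GPT1, the constitutive relative of GPT2, stood at 53.5, 50.8 and 50.3 CPM in 35S GPT2 stems and 54.5, 42.5 and 43.3 CPM in Col-0 set 2. TPT, which exports triose phosphate from the chloroplast, stood at 861, 839 and 804 CPM in 35S GPT2 stems and 853, 743 and 715 CPM in Col-0 set 2, and the groups overlapped. NTT1, which imports ATP into plastids, was at 128, 111 and 136 CPM in 35S GPT2 stems, below the 207, 148 and 151 CPM of Col-0 set 2 in every sample, but missed the threshold (log2 fold change -0.41, SE 0.13, edgeR adjusted p = 0.092).

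HCT (AT5G48930, chromosome 5, minus strand), the hydroxycinnamoyl transferase that moves the p-coumaroyl group onto shikimate, stood at 731, 794 and 556 CPM in 35S GPT2 stems and 538, 466 and 451 CPM in Col-0 set 2. Every 35S GPT2 sample was above every Col-0 set 2 sample, most narrowly with 556 CPM in 35S GPT2 sample 3 and 538 CPM in Col-0 set 2 sample 1. The log2 fold change was 0.50 (SE 0.12, edgeR adjusted p = 0.0352). It missed the threshold without the block (0.52, edgeR adjusted p = 0.22), without TMM scaling (0.49, edgeR adjusted p = 0.0503) and without both samples numbered 2 (0.36, edgeR adjusted p = 0.248).

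Most other monolignol genes were higher as well. With HCT, 14 of 18 tested of 20 were higher and 1 was lower, against 3.59% higher and 3.01% lower among all genes tested, with a median log2 fold change of 0.58. At the entry, C4H, cinnamate 4-hydroxylase, stood at 1355, 1283 and 1371 CPM in 35S GPT2 stems and 819, 683 and 815 CPM in Col-0 set 2 (log2 fold change 0.80, SE 0.10, edgeR adjusted p = 0.00219). PAL1, PAL2 and PAL4, which make cinnamate from phenylalanine, rose with log2 fold changes of 0.68, 0.73 and 0.55, whereas PAL3 fell (-1.39, SE 0.24, edgeR adjusted p = 0.00752). PAL3 was the scarce member in both groups, with 10.0, 7.12 and 5.42 CPM in 35S GPT2 stems and 31.5, 14.9 and 14.3 CPM in Col-0 set 2. CYP98A3 (AT2G40890), the 3-hydroxylase that acts on the product of HCT, stood at 495, 374 and 491 CPM in 35S GPT2 stems and 266, 215 and 265 CPM in Col-0 set 2 (0.86, SE 0.10, edgeR adjusted p = 0.00129). CSE, the esterase that releases caffeate, rose by 0.65. CCOAOMT1, which methylates caffeoyl-CoA, stood at 3767, 2934 and 3771 CPM in 35S GPT2 stems and 2105, 1631 and 2226 CPM in Col-0 set 2 (0.82, SE 0.10, edgeR adjusted p = 0.00144). The groups did not overlap for any of the monolignol genes named so far.

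Further down the pathway, CCR1, cinnamoyl-CoA reductase, was not called (0.17, edgeR adjusted p = 0.396). Exons of the opposite strand cover 77.2% of its exon bases, so reads of its neighbour may enter its count. FAH1, the ferulate 5-hydroxylase that leads to syringyl lignin, was not called either (0.25, edgeR adjusted p = 0.189), and its levels of 471, 403 and 473 CPM in 35S GPT2 stems overlapped the 371, 350 and 406 CPM of Col-0 set 2. CAD4 and CAD5, the last enzymes, rose by 0.85 and 0.42. Without the block 4 of the 18 were called higher, and CCOAOMT1 was not among them (edgeR adjusted p = 0.0549). Without both samples numbered 2, 8 were higher and 1 lower. None of the 5 tested genes for storing and releasing monolignol glucosides was called, among them UGT72B1 with a log2 fold change of -0.06.

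The sequences before 3 lignin and wall genes that rose are shown for their AC elements, the motifs bound by the MYB factors of this pathway. Each window holds the 250 bases before the gene start of the RefSeq annotation (TAIR10.1), and all 3 genes lie on the minus strand. Capitals mark AC elements on either strand, spelled ACCAAAC or ACCAAAT or ACCAACC or ACCAACT or ACCTAAC or ACCTAAT or ACCTACC or ACCTACT. Sequences run 5′ to 3′ on the strand of the gene.
HCT, chr5:19838236-19838485, minus strand: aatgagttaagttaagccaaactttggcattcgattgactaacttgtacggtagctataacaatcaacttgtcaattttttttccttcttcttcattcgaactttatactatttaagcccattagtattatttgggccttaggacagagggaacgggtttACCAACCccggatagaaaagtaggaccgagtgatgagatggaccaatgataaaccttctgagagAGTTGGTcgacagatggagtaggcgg
CYP98A3, chr2:17060653-17060902, minus strand: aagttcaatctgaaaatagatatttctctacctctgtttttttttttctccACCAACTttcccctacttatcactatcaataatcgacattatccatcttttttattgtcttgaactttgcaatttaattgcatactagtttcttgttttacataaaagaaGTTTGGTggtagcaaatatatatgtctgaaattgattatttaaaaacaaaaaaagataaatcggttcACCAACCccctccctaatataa
IRX15, chr3:18618817-18619066, minus strand: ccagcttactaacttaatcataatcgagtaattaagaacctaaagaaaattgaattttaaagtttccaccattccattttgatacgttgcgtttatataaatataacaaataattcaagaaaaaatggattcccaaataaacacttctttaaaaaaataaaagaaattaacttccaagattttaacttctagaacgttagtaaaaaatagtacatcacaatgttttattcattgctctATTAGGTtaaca
The HCT window held 2 AC elements, that of CYP98A3 held 3 and that of IRX15 held 1. At least 1 was found in 10 of the 15 windows of called monolignol genes and in 11 of the 19 of called wall genes, against 29.4% of the windows of all 27443 protein-coding genes. For the 13 called wall transcription factors it was 1 window. The share was 36.6% for all genes called higher and 31.6% for all called lower, and lists that fell held the motif too, with 5 of 10 windows of called glucosinolate genes and 4 of 9 of called flavonoid genes. A match of letters does not show that a factor binds there.

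Genes listed for the cellulose and xylan of secondary walls were higher without exception in this fit. All 19 of 19 rose, against 3.59% of all genes tested, with a median log2 fold change of 1.01. This list was chosen with earlier results of these data known, so its count is a description. CESA4, CESA7 and CESA8, the subunits of the secondary wall cellulose synthase, rose by 0.71, 0.71 and 0.77. CESA4 stood at 1693, 1765 and 1268 CPM in 35S GPT2 stems and 985, 1015 and 870 CPM in Col-0 set 2. CESA8 was the member of the 19 whose groups overlapped, with 598, 872 and 353 CPM in 35S GPT2 stems and 346, 386 and 275 CPM in Col-0 set 2. COBL4 and CTL2, which are needed for cellulose deposition, rose by 1.15 and 0.91 on the log2 scale. FLA12, a fasciclin-like arabinogalactan protein of stem fibres, stood at 693, 478 and 510 CPM in 35S GPT2 stems and 315, 222 and 249 CPM in Col-0 set 2 (1.09, SE 0.10, edgeR adjusted p = 0.000433).

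The xylan genes rose by 0.75 to 1.36. IRX9, IRX10 and IRX14, which extend the xylan backbone, rose by 1.17, 0.81 and 1.01. GUX1 and GUX2, which add glucuronic acid side chains, rose by 1.05 and 1.22. IRX15, needed for normal xylan chain length, stood at 628, 570 and 581 CPM in 35S GPT2 stems and 291, 226 and 260 CPM in Col-0 set 2 (2.30-fold higher, edgeR adjusted p = 0.000321). The xylan acetyltransferases TBL29 and TBL3 rose by 1.17 and 1.28. Of the 19 genes, 15 were called without the block, and 18 or 19 when both samples of a number were left out, 19 of them without the number 1 samples. Without 35S GPT2 sample 1 and without the block 3 were called. Of 9 tested genes for the cellulose of primary walls only KOR1 was called (0.53), and the median was -0.18. CESA1, CESA3 and CESA6, subunits of the primary wall synthase, had log2 fold changes of -0.24, -0.09 and -0.27, none of them called. Whether the primary and secondary wall lists differ in response was not tested.

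**Figure D2:**
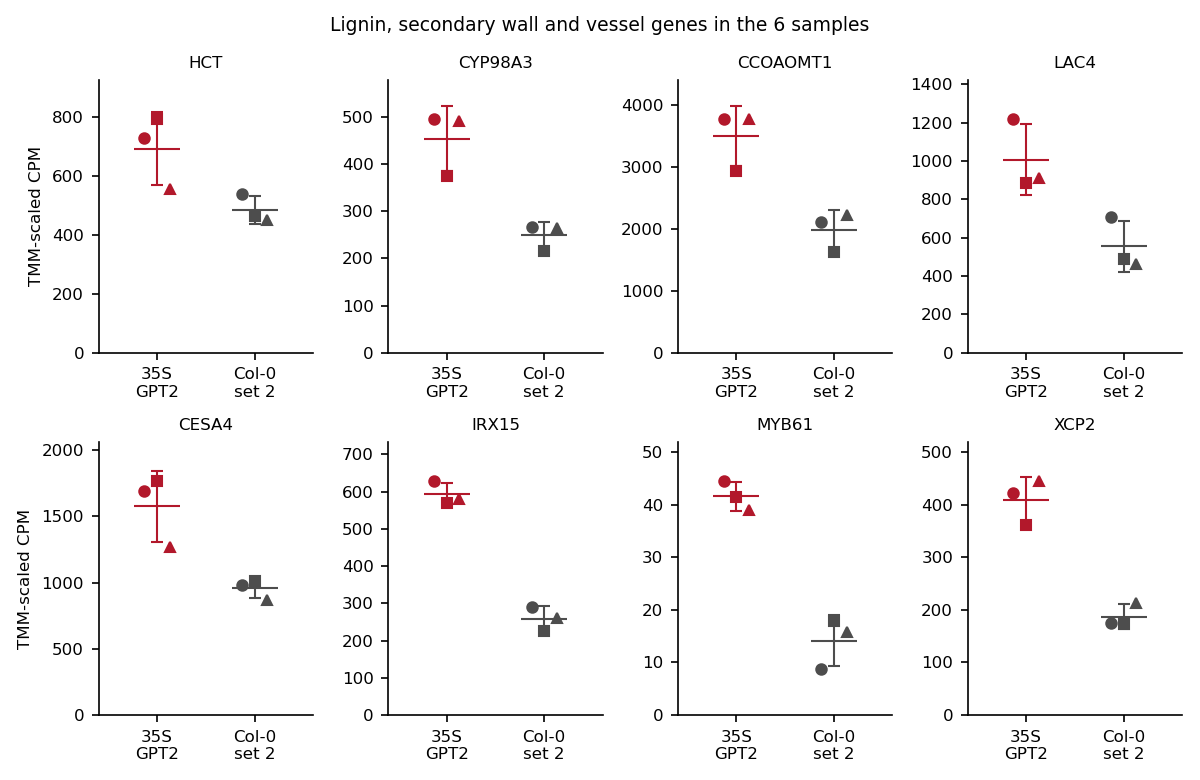
TMM-scaled CPM of 8 genes on linear axes that start at 0, with 35S GPT2 in red to the left of Col-0 set 2 in grey; circles, squares and triangles are samples 1, 2 and 3, and bars give the mean and SD of 3 samples. All 3 points of 35S GPT2 lie above all 3 of Col-0 set 2 in each panel, most narrowly for HCT with 556 against 538 CPM.

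The enzymes that join monolignols in the wall were split. Of 12 tested of 16 laccases and peroxidases, 6 rose and none fell, with a median of 0.83. LAC4, a main stem laccase, stood at 1219, 887 and 912 CPM in 35S GPT2 stems and 708, 491 and 465 CPM in Col-0 set 2 (0.87, SE 0.10, edgeR adjusted p = 0.00135). It was not called without the block (edgeR adjusted p = 0.0671). LAC12, LAC10, LAC17 and LAC2 rose by 1.35, 1.26, 0.90 and 0.79, and 25.2% of the exon bases of LAC17 lie under exons of the opposite strand. Peroxidase PER64 (AT5G42180) stood at 792, 690 and 690 CPM in 35S GPT2 stems and 251, 259 and 286 CPM in Col-0 set 2 (1.45, SE 0.12, edgeR adjusted p = 0.000215). The 4 other tested peroxidases lay between 1.23 and 14.8 CPM over the 6 samples, and none was called, with log2 fold changes of -1.09 to -0.44.

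Many transcription factors of the secondary wall were higher. Of 25 tested of 28, 13 rose and none fell, with a median of 0.89. Among the NAC factors at the top of the cascade, NST3 stood at 131, 133 and 109 CPM in 35S GPT2 stems and 55.9, 70.8 and 71.8 CPM in Col-0 set 2 (0.90, SE 0.14, edgeR adjusted p = 0.00442), and NST1 rose by 0.86. SND2, a NAC factor downstream of them, rose by 0.96 and stood at 195, 165 and 169 CPM in 35S GPT2 stems and 98.6, 87.5 and 85.2 CPM in Col-0 set 2. MYB46, the master regulator below the NAC factors, stood at 47.5, 37.6 and 44.0 CPM in 35S GPT2 stems and 6.46, 20.5 and 17.3 CPM in Col-0 set 2 (1.58, SE 0.31, edgeR adjusted p = 0.0144). MYB61 and MYB103 rose by 1.56 and 1.53, and MYB63 and MYB85, activators of lignin genes, by 0.89 and 1.00. Several of these genes were lowest in Col-0 set 2 sample 1. The repressors MYB4 and KNAT7 were higher as well, by 0.62 and 0.73. The vessel regulators VND4 and VND6 had log2 fold changes of 1.72 and 1.57 but were at 0 in Col-0 set 2 sample 1 and were not called (edgeR adjusted p = 0.179 and 0.262). Without the block 8 of the 25 were called. Leaving out both samples numbered 1 gave 19 of 26, and those numbered 2 gave 9 of 25.

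Markers of xylem vessels were higher in part. Of 5 tested, 3 rose: the vessel proteases XCP2 (1.13, SE 0.11, edgeR adjusted p = 0.000435) and XCP1 (1.37), and the ribonuclease RNS3 (1.08). XCP2 stood at 423, 362 and 445 CPM in 35S GPT2 stems and 175, 173 and 214 CPM in Col-0 set 2. The other 2, BFN1 and MC9, had log2 fold changes of 0.01 and -0.22. Summed over the list, levels were 496 to 608 CPM in 35S GPT2 stems and 258 to 321 CPM in Col-0 set 2. The part of the share of vessel cells in the wall results was not tested, and in whole stems more cells of a type and more RNA per cell cannot be told apart. None of the 10 cambium markers and none of the 4 phloem markers was called. Cambium markers summed to 306 to 338 CPM in 35S GPT2 stems and 313 to 343 CPM in Col-0 set 2. Floral organ and seed markers, 7 each, all had means under 2 CPM. Of 7 tested of 11 mitosis genes none was called. Of 13 epidermis and wax markers 4 rose: WSD1, a wax ester synthase, by 2.77, CER4 and CER1 by 1.11 and 0.49, and MAH1, the midchain alkane hydroxylase of stem wax, with 174, 227 and 144 CPM in 35S GPT2 stems and 55.9, 83.7 and 66.5 CPM in Col-0 set 2 (1.39, SE 0.13, edgeR adjusted p = 0.000407).

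The wild type level of wall genes was not the same in the other trial. The genes compared here have at most 1.72% of their exon bases under opposite-strand exons. In a fit of 12 samples with its own scaling, CESA4 stood at 1566, 1634 and 1175 CPM in 35S GPT2 stems, 912, 939 and 806 CPM in Col-0 set 2 and 1600, 1706 and 1527 CPM in Col-0 set 1. Col-0 set 1 was thus at the level of 35S GPT2 for CESA4, and LAC4 was alike with 980 to 1400 CPM in Col-0 set 1. For IRX15, Col-0 set 1 was below both groups at 160 to 193 CPM, and for XCP2 it was near Col-0 set 2 with 174 to 193 CPM. Trial and wild type set cannot be told apart.

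Upstream of the lignin pathway, 5 of 19 shikimate and phenylalanine genes rose and none fell. The class II DAHP synthase AT1G22410, the first step, stood at 744, 702 and 635 CPM in 35S GPT2 stems and 479, 434 and 448 CPM in Col-0 set 2 (0.61, SE 0.10, edgeR adjusted p = 0.00746). The others were MEE32, the dehydratase and dehydrogenase of the middle steps, AT2G45300, annotated as an enolpyruvate transferase, chorismate synthase EMB1144 and chorismate mutase CM1, with log2 fold changes of 0.50 to 0.61. None of the 6 arogenate dehydratases that end the route to phenylalanine was called, and their log2 fold changes were -0.08 to 0.33. None of the 5 calls held without the block or without both samples numbered 2.

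**Figure D3:**
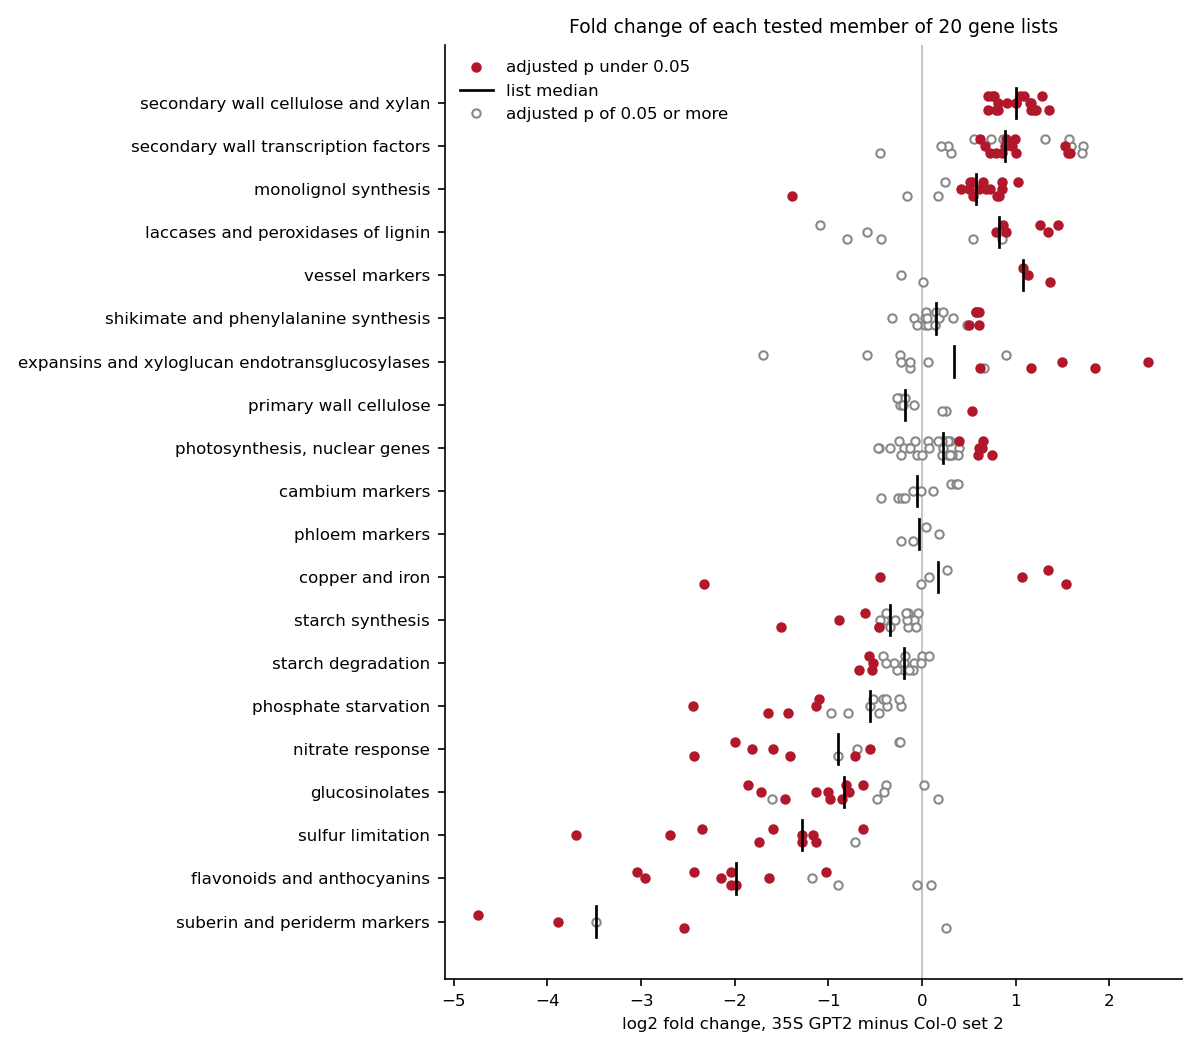
Log2 fold change of 35S GPT2 over Col-0 set 2 for each tested member of 20 gene lists; red points were called at an adjusted p under 0.05, open points were not, and black bars are list medians. The 19 genes of secondary wall cellulose and xylan all lie right of 0 with a median of 1.01, and the flavonoid and suberin lists have the lowest medians, -1.99 and -3.48.

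Starch genes, the textbook destination of glucose 6-phosphate in plastids, included none called higher. Of 17 synthesis genes 4 fell and of 17 tested degradation genes 4 fell, and none rose. GBSS1, the granule-bound synthase that makes amylose, stood at 11.8, 6.87 and 4.75 CPM in 35S GPT2 stems and 22.8, 18.0 and 21.6 CPM in Col-0 set 2 (-1.51, SE 0.28, edgeR adjusted p = 0.0116). The branching enzyme SBE2.1, the synthase SS3 and the small subunit of ADP-glucose pyrophosphorylase (AT5G48300) fell by 0.61, 0.89 and 0.46 on the log2 scale. The large subunit APL3 was not called, with 151, 161 and 156 CPM in 35S GPT2 stems and 149, 177 and 168 CPM in Col-0 set 2. GWD1 and PWD, the dikinases that open starch for breakdown, had log2 fold changes of -0.53 and -0.57, DPE2 of -0.67 and PHS1 of -0.52. BAM3, the main leaf beta-amylase, was not called (-0.27), and 25.2% of its exon bases lie under opposite-strand exons. None of the 8 calls held without the block, and the groups did not overlap for any of the 8.

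In the pentose phosphate pathway 1 of 20 tested genes rose and 2 fell, against 3.59% higher and 3.01% lower among all genes tested. The transketolase TKL2 had a log2 fold change of 0.46, the lactonase PGL1 -0.66 and the 6-phosphogluconate dehydrogenase AT5G41670 -0.68. TKL1, the main plastid transketolase, stood at 950, 789 and 857 CPM in 35S GPT2 stems and 1006, 853 and 904 CPM in Col-0 set 2 (-0.09). Among 12 tested sugar transporters 1 rose and 3 fell. SWEET11, which releases sucrose toward the phloem, fell to 10.5, 13.0 and 10.4 CPM in 35S GPT2 stems, against 39.1, 46.0 and 50.4 CPM in Col-0 set 2 (-2.01, SE 0.18, edgeR adjusted p = 0.000321). The tonoplast carriers TMT2 and TMT1 changed in opposite directions, by -0.82 and 0.68 on the log2 scale; the groups overlapped for TMT1, and neither was called without the block.

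Of 11 tested sugar starvation markers 2 rose and 3 fell. ERD5, the proline dehydrogenase induced by low sugar and by proline, stood at 415, 357 and 366 CPM in 35S GPT2 stems and 108, 70.6 and 85.8 CPM in Col-0 set 2 (2.13, SE 0.12, edgeR adjusted p = 3.76e-05), and DIN10 rose by 0.62. TPS8, TPS11 and BT2, which sugar starvation is also known to induce, fell, TPS8 by 0.90 and BT2 by 1.76 on the log2 scale. The list thus held called members in both directions, and its median was -0.12. Among 32 nuclear photosynthesis genes 6 rose and none fell: LHCB2.1 (0.75), LHCB2.2, LHCB3, LHCA4, LHCB1.1 and the plastocyanin DRT112. Members of the LHCB1 and LHCB2 families are near-identical, so their split depends on the authors' counting. None of the 6 was called without the block.

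Genes for nitrate reduction were lower. Of 11 tested of 15 in the nitrate list 7 fell and none rose, with a median of -0.90. NIA2, the main nitrate reductase, stood at 108, 82.5 and 87.3 CPM in 35S GPT2 stems and 471, 342 and 311 CPM in Col-0 set 2 (-2.00, SE 0.11, edgeR adjusted p = 3.76e-05). NIA1, its second form, stood at 4.75, 5.16 and 4.75 CPM in 35S GPT2 stems and 23.0, 31.0 and 25.8 CPM in Col-0 set 2 (-2.43). Nitrite reductase NIR1, UPM1, which makes the sirohaem of that enzyme, and the nitrate-induced regulator LBD37 fell by 1.59, 1.41 and 1.82 on the log2 scale. GLU1, ferredoxin-dependent glutamate synthase, fell by 0.56, whereas GS2, the plastid glutamine synthetase, was not called (-0.23). Without the block 5 of the 11 were called.

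The sulfur limitation list fell nearly whole. Of 11 tested of 14, 10 fell and none rose, with a median of -1.28. APR1 is an APS reductase, which reduces activated sulfate for cysteine synthesis. It stood at 76.4, 83.5 and 89.3 CPM in 35S GPT2 stems and 239, 243 and 269 CPM in Col-0 set 2 (-1.59, SE 0.11, edgeR adjusted p = 0.000106). APR2 and APR3 fell by 1.16 and 1.13. SDI1, a marker that sulfur-starved plants induce, stood at 0.717, 0.491 and 1.19 CPM in 35S GPT2 stems and 12.1, 9.63 and 10.6 CPM in Col-0 set 2 (-3.70, SE 0.44, edgeR adjusted p = 0.00138). LSU1 and LSU2 fell by 2.69 and 1.74, and the sulfate transporters SULTR1;2 and SULTR2;1 by 2.35 and 1.28. The vacuolar exporter SULTR4;2 was the tested member not called (-0.72, edgeR adjusted p = 0.0854). Without the block 8 of the 11 were called.

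Glucosinolate genes fell as well. These sulfur-rich defence compounds of Brassicaceae are built from methionine or tryptophan, and in sulfur-starved plants their genes are known to fall while sulfur limitation genes rise. Here 10 of 16 tested fell and none rose, with a median of -0.83. MAM1, which lengthens the methionine chain, stood at 102, 106 and 93.1 CPM in 35S GPT2 stems and 402, 364 and 332 CPM in Col-0 set 2 (-1.86, SE 0.11, edgeR adjusted p = 4.07e-05). CYP79F1 and CYP83A1, which act next on the methionine branch, fell by 1.72 and 1.13, and the regulators of that branch, MYB28 and MYB29, by 0.98 and 1.00. BCAT4, the aminotransferase at its start, fell by 1.46, and 21.2% of its exon bases lie under opposite-strand exons. On the tryptophan branch CYP79B3 fell by 0.81, whereas CYP79B2, CYP83B1 and MYB51 were not called (-0.48, 0.02 and -0.38). Without the block 6 of the 16 were called.

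Phosphate starvation genes were lower in part. Of 15 tested of 20, 5 fell and none rose. The noncoding RNA AT4 (AT5G03545) stood at 20.2, 26.5 and 24.0 CPM in 35S GPT2 stems and 74.8, 77.0 and 68.2 CPM in Col-0 set 2 (-1.64, SE 0.15, edgeR adjusted p = 0.000321). PHO1, which loads phosphate into the xylem, PAP17, an acid phosphatase, G3Pp1 and SPX1 fell too, led by PAP17 (-2.45). The lipid remodelling genes SQD1, SQD2 and MGD2 were not called (-0.37, -0.38 and -0.52). All 5 were called without the block, and 2 of 16 when both samples numbered 2 or both numbered 3 were left out.

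In the copper and iron list 3 of 8 tested genes rose and 2 fell. The copper/zinc superoxide dismutases CSD1 and CSD2 and their copper chaperone CCS are known to be kept low when copper is scarce, and the iron superoxide dismutase FSD1 is then high. CSD1 stood at 521, 413 and 642 CPM in 35S GPT2 stems and 203, 146 and 190 CPM in Col-0 set 2 (1.54, SE 0.12, edgeR adjusted p = 0.000176). CSD2 and CCS rose by 1.35 and 1.07. FSD1 moved the other way, with 97.6, 72.7 and 93.4 CPM in 35S GPT2 stems and 496, 375 and 454 CPM in Col-0 set 2 (-2.33, SE 0.11, edgeR adjusted p = 1.61e-05). The groups were apart for all 4 genes, and each was called without the block. The manganese form MSD1 was not called, with 163, 144 and 200 CPM in 35S GPT2 stems and 158, 149 and 170 CPM in Col-0 set 2 (0.08). The ferritin FER1 fell by 0.45 and lost its call without the block, while FER3 and FER4 were not called (0.27 and -0.01).

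Flavonoid genes were lower, with 9 of 13 tested of 19 falling, none rising and a median of -1.99. CHS, chalcone synthase, which opens the branch from the same p-coumaroyl-CoA that feeds lignin, stood at 16.0, 9.57 and 13.1 CPM in 35S GPT2 stems and 154, 77.6 and 93.5 CPM in Col-0 set 2 (-3.04, SE 0.15, edgeR adjusted p = 1.87e-05). F3'H, which hydroxylates the B ring, stood at 4.66, 5.40 and 6.36 CPM in 35S GPT2 stems and 60.7, 32.8 and 36.7 CPM in Col-0 set 2 (-2.96, SE 0.26, edgeR adjusted p = 0.000321). DFR and LDOX, which lead on to anthocyanidins, each fell by 2.04. F3H fell by 2.43, but 93.8% of its exon bases lie under opposite-strand exons. The bHLH regulator TT8 fell by 2.15 and its relative EGL3 was not called (0.10). Without the block 7 of the 13 were called.

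Suberin genes, which make the lipid barrier of periderm and endodermis, had the lowest list median, -3.48, and 3 of 5 tested of 9 fell. The fatty acid hydroxylase CYP86A1 stood at 0.538, 1.23 and 0.847 CPM in 35S GPT2 stems and 15.5, 8.86 and 11.8 CPM in Col-0 set 2 (-3.89, SE 0.48, edgeR adjusted p = 0.00151). CYP86B1 and ASFT, the feruloyl transferase of suberin, fell by 4.74 and 2.54. The exporter ABCG20 missed the threshold (-3.48, edgeR adjusted p = 0.0538), and KCS2 was not called (0.26). In the fit of 12 samples CYP86A1 was also low in the other wild type set, with 0.497, 1.14 and 0.785 CPM in 35S GPT2 stems, 14.4, 8.20 and 11.0 CPM in Col-0 set 2 and 0.561, 0.0415 and 0.0584 CPM in Col-0 set 1. CHS showed the same order in that fit, with 14.8, 8.86 and 12.1 CPM in 35S GPT2 stems, 142, 71.8 and 86.6 CPM in Col-0 set 2 and 2.74 to 3.39 CPM in Col-0 set 1. For these genes Col-0 set 2 was the group that stood above the others. Whether Col-0 set 2 stems held more periderm was not tested.

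**Figure D4:**
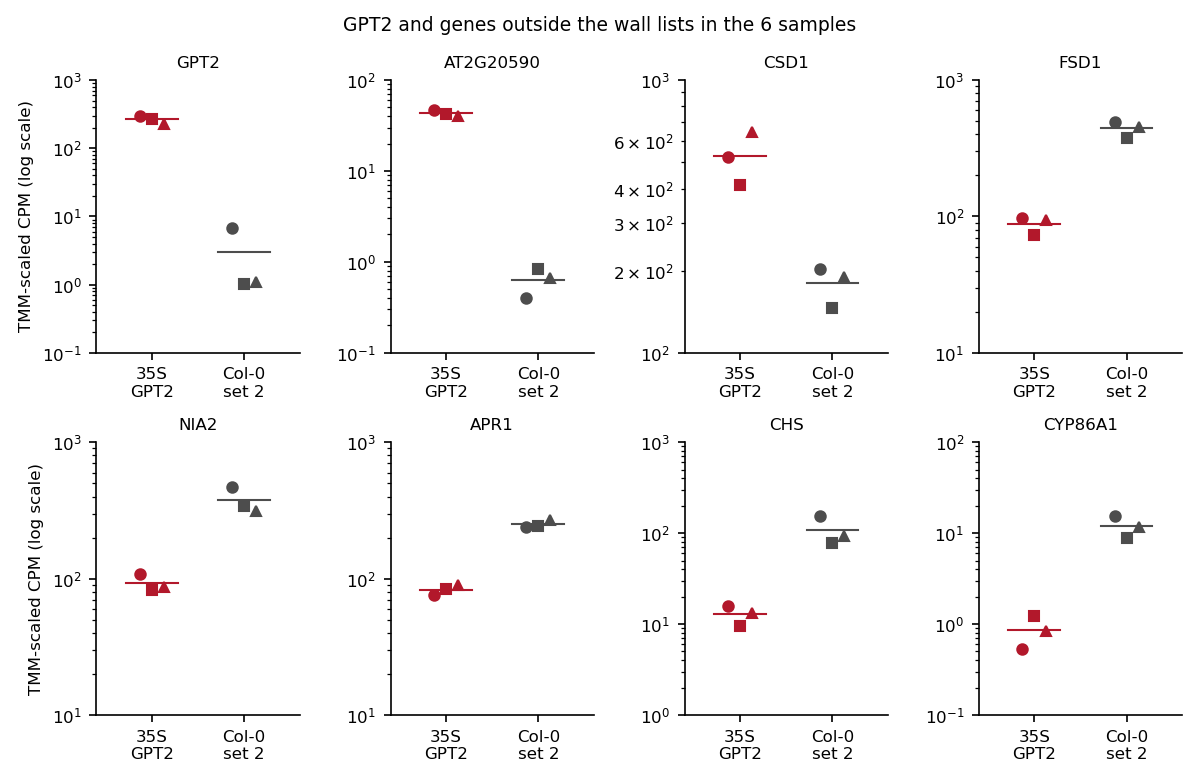
TMM-scaled CPM of 8 genes on log axes, with 35S GPT2 in red to the left of Col-0 set 2 in grey; circles, squares and triangles are samples 1, 2 and 3 and lines are group means. GPT2, AT2G20590 and CSD1 are higher in 35S GPT2 stems, FSD1, NIA2, APR1, CHS and CYP86A1 are lower, and the groups do not overlap in any panel.

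The largest rise after GPT2 was that of AT2G20590, a gene of the reticulon family, whose proteins shape the endoplasmic reticulum. It stood at 46.2, 42.2 and 40.4 CPM in 35S GPT2 stems and 0.403, 0.829 and 0.665 CPM in Col-0 set 2 (5.93, SE 0.26, edgeR adjusted p = 1.61e-05). In the fit of 12 samples it stayed at 1.11 CPM or less in all 9 samples of Col-0 set 2, Col-0 set 1 and gpt2-1. Its neighbours on chromosome 2, RPN1A and NFD6 before it and AT2G00680 after it, were not called. Their log2 fold changes were -0.08, 0.07 and 0.66, the last with an edgeR adjusted p of 0.497. The calmodulin-like gene CML41 stood at 10.7, 13.3 and 14.2 CPM in 35S GPT2 stems and 0.202, 1.08 and 1.17 CPM in Col-0 set 2 (3.88), and AT5G37940, a zinc-binding dehydrogenase, rose by 3.40. The other rises by the naming rule were RCI2B (3.64), AT2G14900 (3.22), AT5G48900 (2.61), GASA4 (2.55), AT5G49800 (2.50), EXPA8 (2.42), AT4G03175 (2.42) and AT5G37950 (2.40). All 8 were lowest in Col-0 set 2 sample 1, at 0 to 2.42 CPM. RCI2B, AT5G49800, AT4G03175 and AT5G48900 were not called without the block, and AT5G48900 was not called by DESeq2 either (adjusted p = 0.238).

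Among called genes with a mean of at least 5 CPM and no overlap between groups, the largest falls were those of AT5G44550, a membrane protein of family UPF0497, and AT4G38080, a hydroxyproline-rich glycoprotein. AT5G44550 stood at 0.807, 0.491 and 0.508 CPM in 35S GPT2 stems and 24.4, 9.63 and 11.3 CPM in Col-0 set 2 (-4.62, SE 0.40, edgeR adjusted p = 0.000321). The others were the genes CYP86A1, SDI1, CHS and F3'H described above, the wall protein PELPK1 (-3.57), the sulfate transporter SULTR1;3 (-3.51), the lipid transfer protein AT3G22620 (-3.20), AT5G59080 (-3.15), DR4 (-2.93) and AT4G38340, an RWP-RK factor of the family of nitrate regulators (-2.67). Exons of the opposite strand cover 48.9% of the exon bases of AT5G59080. All 12 were called without the block.

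Other lists held few called genes, beside 3.59% higher and 3.01% lower among all genes tested. They are not read as changed as a whole. In the expansin list 9 of 14 tested members were not called, and its median was 0.35. Of 14 tested expansins and xyloglucan endotransglucosylases, which loosen growing walls, 5 rose and none fell: EXPA8 averaged 13.8 ± 3.63 CPM in 35S GPT2 stems and 2.48 ± 0.0570 CPM in Col-0 set 2 (SD, n = 3 each), and EXPA5, EXPA1, XTH4 and EXPA4 rose by 0.62 to 1.85. In the auxin list IAA7 and IAA4 rose (0.68 and 0.81) among 8 tested. In the salicylic acid list PR2 and NIMIN1 rose (0.96 and 2.05) among 13. In the jasmonate list MYC2 and JAZ9 fell (-0.63 and -0.58) among 15 and were not called without the block, and 98.5% of the exon bases of MYC2 lie under opposite-strand exons. Of 15 rapid stress factors TCH4 and ERF104 fell (-1.69 and -0.67). COR15B rose by 0.89 among 16 dehydration and cold genes, with 29.5% of its exon bases under opposite-strand exons. GI fell by 0.47 among 19 clock genes and GSTF8 by 0.91 among 7 glutathione transferases, and these 3 calls were lost without the block. Of 4 tested heat shock genes none was called.

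The effect of 35S GPT2 was set against that of gpt2-1, each relative to its own wild type set, in 1 fit of 12 samples. The libraries labelled gpt2-1, a mutant by its label, held 135, 135 and 142 CPM of GPT2, against at most 1.47 CPM in Col-0 set 1. Counts per gene do not show whether these reads come from an intact transcript, and why they are high was not tested. The difference is thus between 2 groups that both carry more GPT2 reads than their wild type. For GPT2 itself the difference between the 2 effects missed the threshold (edgeR adjusted p = 0.547). Of 17034 genes tested, the effects differed for 4704, or 27.6%. In gpt2-1, 4536 genes, or 26.6%, were called against Col-0 set 1. Of the 17034 tested, 2996 were higher in gpt2-1 and 1540, or 9.04%, lower. These counts are the background for the gpt2-1 list counts below. Of the 1096 genes called in 35S GPT2 that were in this fit, 133 were called in gpt2-1 in the same direction and 343 in the opposite direction. The lists below were chosen with the 35S GPT2 effect known, and that effect is a term of the difference, so their counts are a description. The trials also differ in which genes hold counts: 172 genes of the fit were at 0 in all 6 gpt2-1 and Col-0 set 1 libraries, and 169 of them had reads in all 6 of 35S GPT2 and Col-0 set 2. Of the 172, 148 have at least 90% of their exon bases under opposite-strand exons, among them MYC2, MYB58 and F3H. In reverse, 35 genes were at 0 in all 6 libraries of 35S GPT2 and Col-0 set 2. How each trial was counted is not given in the sources used here, and no difference is read for such genes.

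For all 19 secondary wall genes the effect of 35S GPT2 differed from that of gpt2-1, in which none was higher and 10 were lower. For IRX15 the edgeR adjusted p of the difference was 2.39e-05. Of the 19 monolignol genes in this fit 14 differed, and in gpt2-1 2 were higher and 4 lower. Of 17 glucosinolate genes 16 differed, and in gpt2-1 10 were higher and none lower, beside 2996 higher among all 17034 genes tested. Of 12 nitrate genes 10 differed, and in gpt2-1 3 were higher and 2 lower. The gpt2-1 counts of the monolignol and nitrate lists are not read as results about those lists. Of 26 wall transcription factors 20 differed, and in gpt2-1 none was higher and 8 were lower. Of 10 sulfur limitation genes 7 differed, and in gpt2-1 1 was higher and 4 were lower. Of 18 starch degradation genes 10 differed, and in gpt2-1 3 were higher and 11 lower. GWD1, PWD and PHS1 were lower in both lines, with log2 fold changes of -0.63, -0.92 and -0.94 in gpt2-1. Of 8 copper and iron genes 6 differed, and in gpt2-1 3 were higher and none lower. CSD1 and CSD2 were higher in both lines, by 0.55 and 0.51 in gpt2-1. The suberin gene CYP86A1 and the flavonoid gene CHS differed as well (edgeR adjusted p = 0.0183 and 2.39e-05). Line, trial and wild type set change together here and cannot be told apart.

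**Figure D5:**
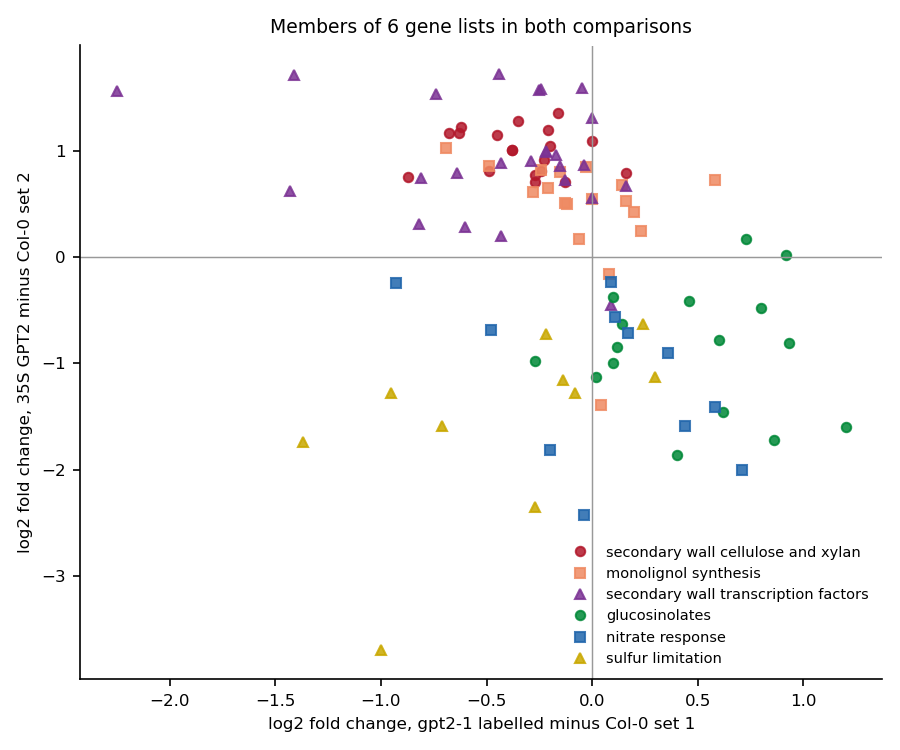
Log2 fold changes of members of 6 gene lists, with gpt2-1 labelled samples over Col-0 set 1 on the horizontal axis and 35S GPT2 over Col-0 set 2 on the vertical axis. The 19 secondary wall cellulose and xylan genes all lie above 0 on the vertical axis, and the members of the sulfur limitation list all lie below it.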

How the data were processed

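Stem RNA was read as poly(A) libraries with a stranded kit, per the labels' protocols, and the deposited values are raw counts per gene, 1 table per sample, for 15 samples, and the 4 records of a sample name the same table and count as 1 sample. The submitters' processing notes name STAR, DESeq2 and the build TAIR10. How reads were assigned to genes, and whether by strand, is not given in the sources used here. Because strand use is unknown, overlap with exons of the opposite strand is given beside genes it touches. Gene names, coordinates and sequences come from RefSeq (TAIR10.1).

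Counts of 5 tables were read in the gene order of the 35S GPT2 sample 1 table. Their Spearman correlation with that table was at least 0.841 in every window of 1000 rows, and at most 0.247 when shifted by 1 row. AT1G64190 was left out, because the place of this gene in that order held the counts deposited under GPT2. The 219 rows that name no locus (0.000322 to 0.00117% of counts) stayed out. Genes with a mean of at least 2 CPM over the 6 samples were tested with edgeR 4.0.16 (R 4.3.3, limma 3.58.1), TMM scaling, a quasi-likelihood F test with sample number as block and Benjamini-Hochberg adjustment over all 16822 genes. The SE of a log2 fold change comes from that fit, whose 2 residual degrees of freedom limit its precision, and the biological coefficient of variation was 18.2%. The series' design text calls the samples biological replicates, and p-values measure only the spread between them. Sample number entered as block by the rule set for this comparison. Deviations from group means correlated at 0.16, 0.35 and 0.20 between samples of 1 number and at -0.30 to 0.07 otherwise. Those deviations come from the same counts and are centred within each group, which ties the correlations together. They cannot decide whether the numbers pair the samples. No sample pair of a group agreed within sampling noise.

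Named genes were GPT2, HCT, the neighbours of GPT2, the 12 largest rises and 12 largest falls among called genes with a mean of at least 5 CPM and no overlap between groups, and from each list up to 4 called members with the smallest p, with up to 3 of the most abundant for 5 lists. Other list members are given for context and were chosen after their values were seen. The members and lists were chosen with earlier results of these data known. Alternatives were the fit without the block, other scaling, other filters, DESeq2 1.42.0, leaving out samples, leaving out genes with opposite-strand overlap and the gene labels as deposited. On counts simulated for this comparison (16711 genes), the test called 83 of 100 genes changed 2-fold, 100 of 100 changed 4-fold and 8 unchanged genes. The settings of the simulation are not given here, so these counts do not measure recovery or false calls in the real samples. Values of 2 genes tested are not reported here.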

Additional observations from a re-analysis of the deposited data

How the results depend on the processing

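Outside the labels as deposited, all genes called kept their sign in the alternatives run. Those alternatives reuse the same counts or parts of them, so the shared sign does not show that direction is stable. The number of calls changed with the setting. The fit without the block called 443 genes, 242 higher and 201 lower, and of 115 called named genes other than GPT2 and HCT 41 lost their call. With no filter 1856 of 23875 tested genes were called, 1004 higher and 852 lower. Among genes without opposite-strand overlap 800 of 12397 tested were called, and 796 of these were among the 1111. With the gene labels as deposited 0 genes were called, 0 higher and 0 lower, GPT2 had 6.24 (edgeR adjusted p = 0.748) and HCT 0.14 (edgeR adjusted p = 0.993), since rows of different samples then hold different genes. DESeq2 called 1285, of which 1061 were shared with the 1111. HCT missed the threshold without the block (0.52) and without scaling factors (0.49). Without replicate 1, 2 or 3 of both groups, 2567, 536 and 824 genes were called (1425, 318 and 494 higher, 1142, 218 and 330 lower), GPT2 had 6.66 to 7.84 and HCT 0.36 to 0.62, from 1 residual degree of freedom. Without the block, leaving out 35S GPT2 sample 1, 2 or 3 gave 102, 288 and 190 called genes (38, 162 and 96 higher, 64, 126 and 94 lower), with HCT at 0.48, 0.41 and 0.65. Leaving out Col-0 set 2 sample 1, 2 or 3 likewise gave 618, 239 and 227 (365, 111 and 114 higher, 253, 128 and 113 lower), with HCT at 0.59, 0.49 and 0.47, never called; GPT2 ranged over 6.44 to 7.96. BGLU46, not called at -0.15, ran from -0.36 to 0.04 without a pair, and was 0.09 without 35S GPT2 sample 1 and 0.00 without Col-0 set 2 sample 2, both without the block. For the difference between the effects of the 2 lines, 3560 genes were called without the block and 3591 among genes without opposite-strand overlap. Depth limits genes near 1 CPM most in 35S GPT2 sample 2 and Col-0 set 2 sample 1.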

Other observations

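Several further gene families held called members in 35S GPT2 stems. They were chosen after their values were seen and grouped by RefSeq symbol. Of 6 tested ZIP and IRT transporters, which take up zinc and iron, 4 fell and none rose, and ZIP11 (0.33) and ZIP6 (-0.47) were not called. ZIP5 stood at 9.14, 11.0 and 7.54 CPM in 35S GPT2 stems and 51.8, 51.2 and 41.8 CPM in Col-0 set 2 (-2.40, edgeR adjusted p = 0.000144), and ZIP4, IRT3 and ZIP1 fell by 1.98, 1.64 and 0.98. Both tested genes for nicotianamine synthase, which makes a metal chelator, fell: NAS1 by 1.83 and NAS4 by 1.16. Of 4 tested heavy metal ATPases 2 fell. HMA2, a zinc pump that loads the xylem, stood at 72.1, 63.6 and 73.3 CPM in 35S GPT2 stems and 235, 160 and 162 CPM in Col-0 set 2 (-1.39), and HMA4 fell by 0.81, while HMA1 (-0.15) and HMA5 (-0.34) were not called.

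Families of xylan synthesis differed in how many members were called. UXS3, which makes UDP-xylose, stood at 1185, 1003 and 1243 CPM in 35S GPT2 stems and 465, 390 and 467 CPM in Col-0 set 2 (1.38, edgeR adjusted p = 0.000166), and UXS6 and UXS5 rose by 1.52 and 0.79 among 5 tested. GXM2 and GXM3, which methylate the glucuronic acid of xylan, rose by 1.63 and 1.15, and 82.2% of the exon bases of GXM3 lie under opposite-strand exons. Of 29 tested genes with a TBL symbol, a family that holds the xylan acetyltransferases, 4 rose and none fell, with a median of 0.09. TBL3 is among those that rose and was already counted in the secondary wall list. TBL29, which rose by 1.17, has the RefSeq symbol ESK1 and is not among the 29. Near AT5G37940 on chromosome 5, AT5G37950 (2.40) and AT5G37970 rose too, the second with 5.56, 3.44 and 3.81 CPM in 35S GPT2 stems and 0, 0.255 and 0 CPM in Col-0 set 2. The adjacent AT5G37930 was not called (-0.00, edgeR adjusted p = 0.998).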
